A study of Mus musculus with 16 samples.

Results

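Alveolar macrophages sorted as positive for p16 were compared with those sorted as negative, within mouse lungs exposed to inhaled lipopolysaccharide (LPS). The comparison takes the 4 LPS p16-positive libraries and the 4 LPS p16-negative libraries, which are 8 of the 16 libraries of the series, and describes the 5547 of 7946 listed genes that had at least 30 UMIs summed over these 8 libraries. A UMI, or unique molecular identifier, stands for 1 captured transcript. All 8 libraries came from C57BL6 mice that inhaled LPS, a component of the bacterial cell wall, as an aerosol at 0.5 mg/ml for 30 min, 3 times a week over 10 weeks, and libraries from mice exposed to phosphate-buffered saline (PBS) enter only where both treatments were compared. The sort gate for CD45, CD11c and Siglec-F was joined to a stain for intracellular p16 after methanol fixation, each sample held 5000 sorted cells, and libraries are described as made from pooled samples. The replicates are labelled biological, but the link between libraries and animals is not given in the labels or methods, and p-values therefore reflect library-to-library spread, which may be technical.

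Alveolar macrophages are the resident phagocytes of the air spaces, where they clear particles, bacteria and surfactant. The protein p16, made from the Cdkn2a locus, inhibits the cyclin-dependent kinases CDK4 and CDK6 and thereby holds the retinoblastoma pathway in its growth-arresting state. It is widely used as a marker of senescence, a lasting arrest of division in which cells can secrete cytokines, proteases and growth factors, and p16 staining is also seen in some activated macrophages.

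Replicates 1 to 4 gave 100960, 139976, 166495 and 401857 UMIs in the p16-negative fraction and 178681, 293771, 118703 and 1176358 in the p16-positive fraction. Replicate 4 of the p16-positive fraction thus held 45.7% of all UMIs of the 8 libraries. Levels are given as CPM, the UMI count scaled to one common library total. A gene without UMIs can still have a true level of up to 3 UMIs, which is 2.55 CPM in the deepest and 29.7 CPM in the shallowest library. Replicate 2 of the p16-positive fraction stood apart from the other libraries. On the first principal component of log2 CPM, which carried 29.7% of the variance, it lay at -62.9 where the other 7 libraries lay between -12.7 and 32.3. Of its UMIs, 12.97% (exact binomial 95% interval 12.8 to 13.1%, counting error only) fell on the joined lists of ciliated, secretory and general epithelial genes, against 0.221 to 1.49% in the 7 others. The alveolar macrophage markers (33 listed of 35) took 2.46% of its UMIs and 4.81 to 8.75% elsewhere. Values without this library therefore stand beside those from all 8.

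The table listed Cdkn2a (chr4:89274473-89294619, RefSeq on GRCm38.p6) with few UMIs, and the fractions did not separate by it. It was at 0, 42.9, 12.01 and 2.49 CPM in the p16-negative libraries and at 0, 13.6, 0 and 25.5 CPM in the p16-positive ones, from 9 and 34 UMIs in all. The groups overlapped, and the log2 fold change (positive over negative throughout) was -0.18 (SE 1.10, edgeR adjusted p = 0.998; n = 4 libraries per fraction) and -0.15 without p16-positive replicate 2. Counts at the 3′ end do not tell the p16 transcript from p19Arf, the other product of this locus, and the cells were sorted on protein. The direction is not set by these counts, since it turned to 1.29 without p16-negative replicate 2.

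The genes behind the sort gate were measured at low to moderate levels in both fractions. Siglecf, which encodes Siglec-F, was at 29.7, 7.14, 12.01 and 17.4 CPM in the p16-negative and at 5.60, 3.40, 8.42 and 14.5 CPM in the p16-positive libraries. Itgax, the CD11c gene, lay between 85.7 and 388 CPM in p16-negative and between 54.5 and 390.2 CPM in p16-positive libraries, and Ptprc, the CD45 gene, between 0 and 29.7 CPM and between 11.2 and 33.7 CPM. As 2 further macrophage products, chosen after their values were seen, the table held the chitinase-like protein gene Chil3 at 557 to 2284 CPM in p16-negative and 837 to 2907 CPM in p16-positive libraries, and the scavenger receptor gene Marco at 228 to 400.1 and 116 to 623 CPM. Siglecf, Itgax, Chil3 and Marco were thus measured in each of the 8 libraries, and Ptprc in 7.

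In the fit of the 8 libraries without a replicate term, no gene passed the test between the fractions. The quasi-likelihood F test of edgeR called 0 of 5547 genes at an adjusted p under 0.05 (0.0% in either direction, lowest adjusted p = 0.671), and 302 genes (5.44%) had an unadjusted p under 0.05, where 277 are expected if no gene differs. Of these, 264 (4.76%) had positive and 38 (0.685%) negative log2 fold changes. DESeq2 called 2 genes, Gm19935 and Armh1, both positive, with 224 at an unadjusted p under 0.05, and limma-voom called 0 with 137 genes at an unadjusted p under 0.05. With the replicate number as a block, edgeR called 36 genes (0.649%), all positive, and 1 (Foxj1) when p16-positive replicate 2 was also left out. Whether equal replicate numbers mark a shared source is not given. Over all tested genes the median log2 fold change was 0.04, with 2908 positive (52.4%) and 2639 negative values (47.6%). The count of calls rested on single libraries: without p16-positive replicate 4, the deepest, 36 genes were called (0.649%), all positive, and all 36 had their highest CPM in p16-positive replicate 2. The other 7 fits that leave out 1 library called 0 genes each. Their genes with an unadjusted p under 0.05 numbered 93 without p16-positive replicate 2, 197 without p16-negative replicate 3 and 254 to 332 without any other, against 502 without p16-positive replicate 4.

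Without p16-positive replicate 2 the edgeR test again called 0 genes (lowest adjusted p = 1.00), and the genes with an unadjusted p under 0.05 went from 302 to 93 (1.68%), of which 61 were positive (1.1%) and 32 negative (0.577%). The positive side lost most. Of the 264 positive genes, 241 had their highest CPM in that library, their median log2 fold change went from 2.91 to 1.33, and 52 still had an unadjusted p under 0.05. The sign held in 259 of the 264. Over all tested genes 51.3% were positive without it, and 18.3% had their highest CPM in it. Of the 38 negative genes, 21 kept an unadjusted p under 0.05 without it, and the median of the 38 was -1.40 with and -1.43 without it.

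The library's excess was spread over many genes. In 411 of the tested genes (7.41%) it had the highest CPM and exceeded the next library by over 2 times, while the other 7 libraries held such a place in 11 to 58 genes each. These 411 included 50 of the 59 tested genes on the 3 epithelial lists. The filter also depends on it, since 459 of the 5547 genes fall under 30 UMIs without it, and 286 of these 459 had their highest CPM in it.

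**Figure D1:**
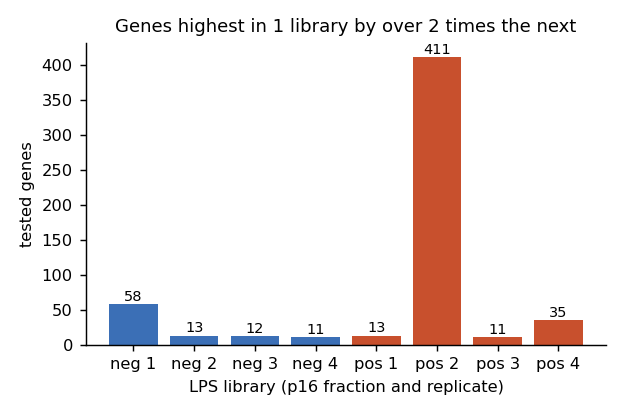
Number of tested genes (y axis) whose CPM was highest in the named LPS library (x axis, p16-negative in blue, p16-positive in red) and over 2 times that of the next library. The bar of p16-positive replicate 2 stands at 411 genes, and the other bars at 11 to 58.

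**Figure D2:**
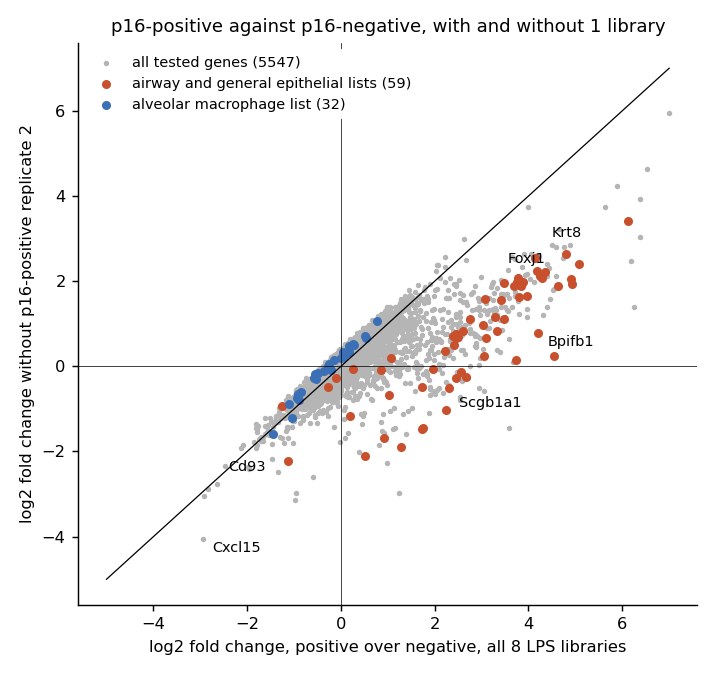
Each point is 1 of 5547 genes, with the log2 fold change from all 8 LPS libraries on the x axis and without p16-positive replicate 2 on the y axis, and the diagonal marks equal values. Epithelial list genes (red) lie mostly below the line, while the 32 alveolar macrophage genes (blue) lie close to it.

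Genes of motile cilia had the highest median log2 fold change of the lists with at least 4 tested members. Ciliated cells line the airways and move mucus by beating axonemes, which are arrays of microtubules driven by dynein arms. All 24 tested genes of the ciliated list (of 58 on the list) had positive log2 fold changes, with a median of 3.40 against 0.04 over all tested genes. None passed the adjusted test, and 17 had an unadjusted p under 0.05, against 5.44% of all tested genes. Each of the 24 had its highest CPM in p16-positive replicate 2. Without that library 17 of 24 stayed positive, 6 had an unadjusted p under 0.05 (1.68% of all tested genes did), and the median was 1.05. Only 14 of the 24 reach 30 UMIs without it, and over these 14 the median was 3.59 with it and 1.77 without it, with 12 positive. In bulk samples, fewer cells of a type and less RNA per cell cannot be told apart, and the part that epithelial or endothelial RNA has in any result here was not tested.

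The 2 tested regulators of the list stayed positive without p16-positive replicate 2, as did 4 of its 6 tested dynein arm genes. Foxj1 (chr11:116330704-116335499), the transcription factor that sets the motile cilia programme, was at 99.0, 157, 12.01 and 37.3 CPM in the p16-negative libraries and at 453, 3047, 320.1 and 123 CPM in the p16-positive ones. The groups overlapped only through p16-positive replicate 4, which lay below p16-negative replicate 2. The log2 fold change of Foxj1 was 3.75 (SE 0.95, edgeR adjusted p = 0.671), and 1.97 (SE 0.61) without p16-positive replicate 2. With the replicate number as a block Foxj1 passed the test (edgeR adjusted p = 0.0047, and 0.0098 when p16-positive replicate 2 was also left out). Ccdc78, needed when multiciliated cells multiply their centrioles, was at 0, 35.7, 12.01 and 7.47 CPM against 112, 871, 42.1 and 33.2 CPM, so that p16-negative replicate 2 lay above p16-positive replicate 4. The log2 fold change of Ccdc78 was 4.28 (SE 1.12, edgeR adjusted p = 0.671), and 2.08 (SE 0.78) without that library. Dnah6, an axonemal dynein heavy chain, was at 19.8, 28.6, 6.01 and 7.47 CPM against 118, 643, 33.7 and 28.1 CPM, and Cdhr3, a cadherin-related surface protein of ciliated cells, at 39.6, 71.4, 0 and 14.9 CPM against 235, 1188, 109.5 and 38.3 CPM. The log2 fold changes of these genes were 3.89 and 3.78, and 1.99 and 2.07 without p16-positive replicate 2. In each of these 4 genes the other p16-positive libraries also had a mean above that of the p16-negative libraries. The 4 were named for their low p, which favours such an outcome. Of the 24 tested genes of the list, 7 were negative without p16-positive replicate 2.

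**Figure D3:**
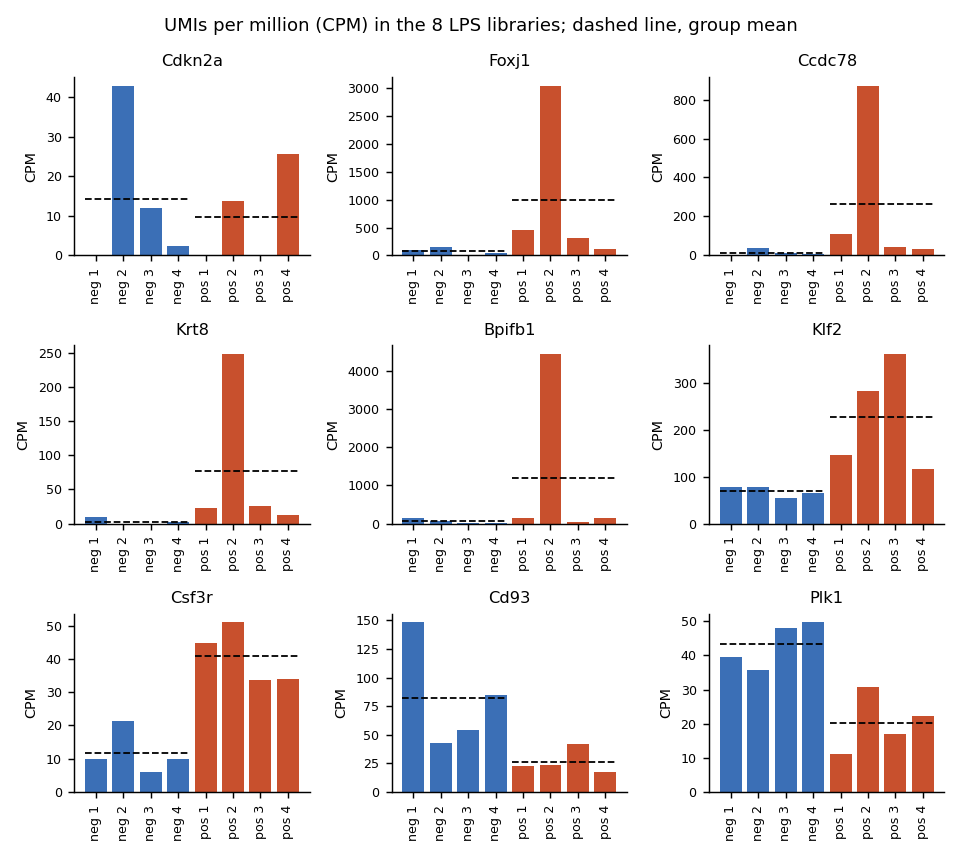
CPM on linear axes from 0 (y axis) of 9 genes in each LPS library (x axis, p16-negative in blue, p16-positive in red), with dashed lines at the group means. Foxj1, Ccdc78, Krt8 and Bpifb1 peak in p16-positive replicate 2, while Klf2 and Csf3r are higher, and Cd93 and Plk1 lower, in all 4 p16-positive libraries.

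Genes of motile cilia are known targets of RFX factors and FOXJ1, and the promoters of the tested ciliated genes were read for this reason. They were taken from RefSeq on GRCm38.p6, from 250 bases before to 50 bases after each start the table gives. Some genes have several starts, which need not be the outer end of the gene, and a gene counts once if any of its windows holds the motif. RFX factors, which act with FOXJ1 in ciliated cells, bind the X-box. Its core GTTGCCA, searched on both strands, was present in 7 of the 20 ciliated genes with an entry (35.0%), and in 5.02% of all 27025 genes and 5.02% of the 4504 tested genes with one. The 7 genes were Ccdc78, Cdhr3, Dnah10, Drc1, Lrrc23, Tekt1 and Zmynd10. The forkhead core TGTTTAC, searched the same way, was present in 0 of the 20, so that no match overlapped that core, and in 4.05% of all genes. A match describes the letters only. Because the listed genes were known beforehand as targets of these factors, the share with a match is not a result of the LPS comparison. The 2 promoters below belong to the described genes with the X-box core, given 5′ to 3′ on the gene's strand, with the core (here as its reverse complement) in capitals. Ccdc78 is at chr17:25786330-25786629 on the plus strand and Cdhr3 at chr12:33092826-33093125 on the minus strand.
Ccdc78: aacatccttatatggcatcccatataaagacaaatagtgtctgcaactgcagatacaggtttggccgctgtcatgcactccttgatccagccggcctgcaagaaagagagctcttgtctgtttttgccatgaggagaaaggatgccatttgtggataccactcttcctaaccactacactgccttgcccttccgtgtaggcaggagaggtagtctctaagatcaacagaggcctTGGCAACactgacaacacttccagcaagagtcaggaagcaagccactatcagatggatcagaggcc
Cdhr3: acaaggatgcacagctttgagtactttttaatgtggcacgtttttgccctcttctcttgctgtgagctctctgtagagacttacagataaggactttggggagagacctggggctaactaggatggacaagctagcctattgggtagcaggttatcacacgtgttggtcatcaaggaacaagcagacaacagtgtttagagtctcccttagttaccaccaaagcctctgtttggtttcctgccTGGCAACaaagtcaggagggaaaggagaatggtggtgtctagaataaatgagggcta

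The other genes of lowest p on the positive side had few UMIs in the p16-negative fraction. Gm19935, a long noncoding RNA, was at 79.2, 50.0, 18.0 and 24.9 CPM in p16-negative and at 470.1, 2069.6, 236 and 42.5 CPM in p16-positive libraries. Its log2 fold change of 4.14 (SE 0.97, edgeR adjusted p = 0.671) was the value of lowest p, both with all libraries and, at 2.58 (SE 0.68), without p16-positive replicate 2. Gm4262, also a noncoding RNA, had 0 UMIs in all 4 p16-negative libraries and 39.2, 109, 33.7 and 5.10 CPM in the p16-positive ones. The 95% counting interval of its pooled ratio began at 5.86, and at 2.27 without p16-positive replicate 2, which held 32 of its 49 UMIs. Armh1 had 1 UMI against 102, a pooled ratio of 46.7 scaled to the groups' totals (95% counting interval 8.20 to 1863), and of 11.5 (1.85 to 477) without p16-positive replicate 2, which held 81 of the 102. Ttc21a, a component of intraflagellar transport, had 1 against 80, a ratio of 36.6 (6.39 to 1465), and of 8.24 (1.27 to 347) without the 65 UMIs of that library. The counts of 6820408C15Rik were 2 and 70 UMIs, a ratio of 16.03 (4.27 to 134.9), and 4.94 (1.18 to 43.9) without its 52 UMIs there. Gm4262, Armh1, Ttc21a and 6820408C15Rik reached 30 UMIs only through the p16-positive libraries, and fall under 30 without p16-positive replicate 2. Their high ratios thus follow in part from the filter, which the counting intervals do not cover. Smim22 and Gm1673, whose functions are less known, had log2 fold changes of 4.12 and 3.72, and 1.98 and 1.74 without p16-positive replicate 2. By measured CPM, Gm4262, Ttc21a and 6820408C15Rik were higher in all 4 p16-positive libraries than in any p16-negative library. In p16-positive replicate 4 they were at only 5.10, 3.40 and 8.50 CPM. These values lie under the floor of 3 UMIs in p16-negative replicates 1 to 3, 18.0 to 29.7 CPM, where all 3 genes had 0 UMIs. In all, 83 tested genes (1.5%) were separated in this way, of which 49 had their highest CPM in p16-positive replicate 2. With 4 libraries per fraction some genes separate fully by chance, and the count was not tested against that number.

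Secretory airway genes, whose products coat and defend the airway surface, kept little of their difference without that library. Of 19 tested secretory genes 18 had positive log2 fold changes with a median of 2.66, and 11 had an unadjusted p under 0.05, against 5.44% of all tested genes. Without p16-positive replicate 2, 11 of 19 were positive, 2 had an unadjusted p under 0.05 (1.68% of all tested genes did), and the median was 0.24. Only 11 of the 19 reach 30 UMIs without it, and over these 11 the median without it was 0.15, with 6 positive. Bpifb1, a secreted defence protein, was at 158, 78.6, 30.0 and 12.4 CPM in p16-negative and at 151, 4439, 33.7 and 154 CPM in p16-positive libraries. Apart from the value of 4439 the ranges overlapped, and the log2 fold change of 4.21 (SE 1.29, edgeR adjusted p = 0.671) became 0.79 (SE 0.66). Scgb1a1, the major protein of club cells and the most abundant transcript of p16-positive replicate 2, was at 5775, 2172, 625 and 266 CPM against 2921, 39670.4, 1061 and 907 CPM, and its log2 fold change of 2.31 turned to -0.50 without that library. Lypd2 was at 29.7, 21.4, 0 and 12.4 CPM against 83.9, 1239, 75.8 and 20.4 CPM, with 4.63 and 1.89 on the log2 scale. Gabrp, a GABA receptor subunit of airway epithelium, had 1 UMI against 128, a pooled ratio of 58.6 (95% counting interval 10.3 to 2333), and of 7.14 (1.07 to 303) without p16-positive replicate 2, which held 115 of the 128. Gabrp reached 30 UMIs only through the p16-positive libraries, so its high ratio follows in part from the filter.

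Among the genes shared by epithelia, 13 of 16 had positive log2 fold changes with a median of 2.46 (11 of 16 and 0.67 without p16-positive replicate 2), and 9 had an unadjusted p under 0.05 (2 without it). Over all tested genes the shares at this p were 5.44% and 1.68%. Without that library 12 of the 16 reach 30 UMIs, with a median of 0.52 and 8 positive. Krt8 (chr15:101996711-102004342), a keratin that forms intermediate filaments in simple epithelia, was at 9.90, 0, 0 and 2.49 CPM in p16-negative and at 22.4, 248, 25.3 and 12.8 CPM in p16-positive libraries. All 4 p16-positive values lay above the p16-negative ones, from 2 and 95 UMIs, a pooled ratio of 21.7 (95% counting interval 5.86 to 182), and of 6.04 (1.48 to 52.99) without p16-positive replicate 2, which held 73 of the 95. The 12.8 CPM of p16-positive replicate 4 lies under the floor of 3 UMIs in p16-negative replicates 2 and 3, which had 0 UMIs. St14, the membrane protease matriptase, was likewise above in all 4 libraries, at 9.90, 21.4, 24.0 and 14.9 CPM against 78.4, 432, 75.8 and 27.2 CPM, with log2 fold changes of 3.07 (SE 0.84, edgeR adjusted p = 0.671) and 1.57 (SE 0.66) without p16-positive replicate 2. Elf3, an epithelial transcription factor, had 1 UMI against 67, of which 56 were in p16-positive replicate 2, and its log2 fold change went from 5.08 to 2.41 without it. Krt8 and Elf3 reached 30 UMIs only through the p16-positive libraries, so their high values follow in part from the filter. Wfdc2, a secreted protease inhibitor and the list's most abundant member, was at 24.0 to 832 CPM in p16-negative libraries and at 649, 8466, 497 and 287 CPM in p16-positive ones, so its ranges overlapped, and 3.10 became 0.67. Epcam, the defining surface protein of epithelia, was at 0 UMIs in 5 of the 8 libraries and had 3, 10 and 8 UMIs in p16-negative replicate 1 and p16-positive replicates 2 and 4.

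**Figure D4:**
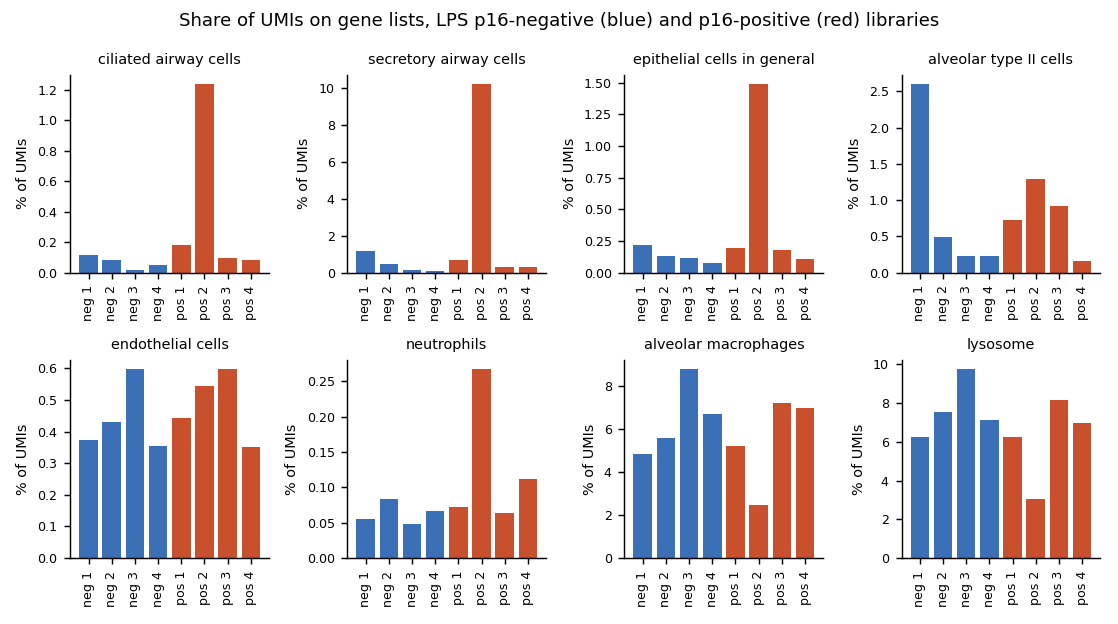
Percent of each library's UMIs (y axes from 0) on 8 gene lists in the LPS p16-negative (blue) and p16-positive (red) libraries, by replicate number. P16-positive replicate 2 holds 1.24% on the ciliated, 10.2% on the secretory and 2.46% on the alveolar macrophage list, and p16-negative replicate 1 has the highest share of alveolar type II genes, 2.60%.

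Genes of the alveolar epithelium had values of either sign, and their highest shares of UMIs were not all in p16-positive replicate 2. Type II cells secrete surfactant, and 5 of their 12 tested genes had positive values, with a median of -0.32 and of -0.56 without p16-positive replicate 2, and of 1.13 without p16-negative replicate 1. That p16-negative library held 2.60% of its UMIs on this list, against 0.157 to 1.29% in the others. Sftpc, surfactant protein C, was at 18998, 3522, 1639.7 and 1533 CPM in p16-negative and at 5736, 8009.6, 6841 and 811 CPM in p16-positive libraries, with overlapping ranges. Cxcl15, a chemokine of lung epithelium, was at 624, 0, 42.0 and 9.95 CPM against 0, 47.7, 42.1 and 5.10 CPM. Its log2 fold change of -2.94 (SE 1.31, edgeR adjusted p = 0.891) turned to 0.23 without p16-negative replicate 1. Chil1, a chitinase-like protein, and Slc34a2, the phosphate transporter of type II cells, had their highest values in that library too, 1089.5 and 366 CPM. The 8 tested type I genes had a median of 0.91, of -1.06 without p16-positive replicate 2 and of 2.73 without p16-negative replicate 1. Only 4 of the 8 reach 30 UMIs without p16-positive replicate 2, and over these 4 the median was 0.48 with it and -1.27 without it. Gramd2 had the lowest p of this list with 1 UMI against 52, of which 40 were in p16-positive replicate 2, and its log2 fold change was 4.75 with and 2.79 without that library. It reached 30 UMIs only through the p16-positive libraries.

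Endothelial genes had positive values in 13 of 15 tested members, with a median of 1.12, and in 12 of 15 with a median of 0.52 without p16-positive replicate 2. None passed the edgeR test, and 4 had an unadjusted p under 0.05 (1 without that library), against 5.44% (1.68%) of all tested genes. Gpihbp1, which anchors lipoprotein lipase on capillaries, was at 39.6, 14.3, 18.0 and 12.4 CPM in p16-negative and at 33.6, 116, 177 and 28.1 CPM in p16-positive libraries, highest in p16-positive replicate 3. Its log2 fold changes were 2.06 and 1.81 without replicate 2, while Egfl7 and the water channel gene Aqp1 went from 1.59 and 1.70 to 0.78 and 0.64. Car4, which alveolar macrophages also express, was by far the most abundant member at 2199 to 4535 CPM in p16-negative and 759 to 2815 CPM in p16-positive libraries. The list's share of UMIs, which includes those of Car4, overlapped between the fractions, at 0.354 to 0.597% and 0.352 to 0.596%.

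Alveolar macrophage genes lay near 0 or slightly below. Of 32 tested markers 13 were positive, none had an unadjusted p under 0.05, and the median of -0.26 became -0.02 without p16-positive replicate 2, with 16 positive. Mrc1, the mannose receptor, was at 238, 107, 150.2 and 105 CPM in p16-negative and at 83.9, 34.0, 152 and 43.4 CPM in p16-positive libraries, with log2 fold changes of -1.11 (SE 0.52, edgeR adjusted p = 0.905) and -0.87. Lpl, lipoprotein lipase, and Trim29 had values of -0.89 and -0.85, and of -0.79 and -0.60 without that library. Ctsd, cathepsin D, was the list's most abundant member at 34400 to 73732 CPM in p16-negative libraries and at 36098, 15539, 54868 and 36782 CPM in p16-positive ones, where replicate 2 was lowest. Genes of the lysosome, where macrophages degrade what they take up, had 12 of 39 positive values and a median of -0.24, which became -0.04 without p16-positive replicate 2. Their share of UMIs was 3.02% in that library and 6.25 to 9.75% in the other 7. Fabp4, a fatty acid carrier of alveolar macrophages, was lowest in replicate 2 at 139.6 CPM, against 193 to 413 CPM in p16-negative and 705, 303 and 751 CPM in the other p16-positive libraries. Its log2 fold change went from 0.78 to 1.07 (SE 0.40, edgeR adjusted p = 1.00).

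**Figure D5:**
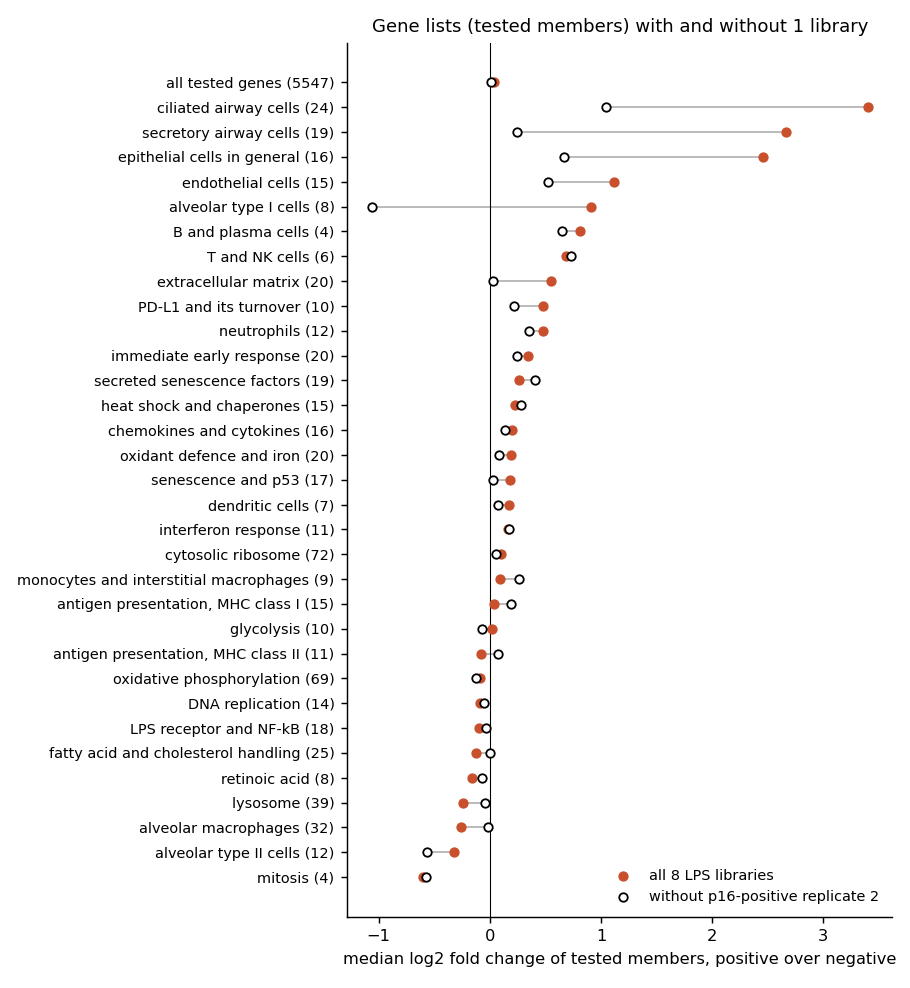
Median log2 fold change (x axis) of the tested members of each list with at least 4 of them (y axis, number tested in brackets), from all 8 LPS libraries (filled red points) and without p16-positive replicate 2 (open points). The ciliated, secretory and general epithelial medians go from 3.40, 2.66 and 2.46 to 1.05, 0.24 and 0.67, and the median over all tested genes lies at 0.04 and 0.01.

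A smaller set of genes kept its value without p16-positive replicate 2. Klf2 (chr8:72319062-72321654), a Krüppel-like transcription factor associated with quiescence, was at 79.2, 78.6, 54.1 and 64.7 CPM in p16-negative and at 146, 283, 362 and 116 CPM in p16-positive libraries. Every p16-positive value lay above every p16-negative one. The log2 fold change was 1.64 (SE 0.45, edgeR adjusted p = 0.671), and 1.47 (SE 0.48, edgeR adjusted p = 1.00) without that library. Csf3r, the G-CSF receptor of neutrophils, was at 9.90, 21.4, 6.01 and 9.95 CPM against 44.8, 51.1, 33.7 and 34.0 CPM, again without overlap, and its log2 fold change of 1.75 became 1.59. In p16-negative replicates 1 and 3 Csf3r lay under the floor of 3 UMIs there, 29.7 and 18.0 CPM. Dusp2, a phosphatase that with Klf2 is on the immediate early list, was at 9.90, 28.6, 24.0 and 12.4 CPM against 89.5, 64.7, 42.1 and 34.0 CPM, with 1.53 and 1.43. Its value in p16-negative replicate 1 also lies under that floor. Ltb, the lymphotoxin beta gene, was at 179 to 327 CPM against 912, 436, 556 and 193 CPM, so p16-positive replicate 4 lay within the p16-negative range, and its log2 fold change was 1.04 and 1.11.

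Genes of low p with negative values were fewer, and their values moved little without that library. Cd93 (chr2:148436651-148443535), a surface receptor of myeloid and endothelial cells, was at 149, 42.9, 54.1 and 84.6 CPM in p16-negative and at 22.4, 23.8, 42.1 and 17.0 CPM in p16-positive libraries, where p16-positive replicate 3 lay just under p16-negative replicate 2. For Cd93 the log2 fold change was -1.79 (SE 0.53, edgeR adjusted p = 0.671), and -1.85 (SE 0.60) without p16-positive replicate 2. Slc16a6, of the monocarboxylate transporter family, was at 79.2, 57.2, 18.0 and 4.98 CPM against 5.60, 6.81, 0 and 5.10 CPM, from 21 and 9 UMIs, with -2.91 and -3.04. Pigt, a subunit of the enzyme that attaches GPI anchors, was at 327, 214, 186 and 144 CPM against 123, 109, 143 and 105 CPM, and Tmem238 at 109, 64.3, 60.1 and 79.6 CPM against 11.2, 57.9, 33.7 and 42.5 CPM. Cd93, Pigt and Tmem238 were among the 23 genes (0.415%) lower in all 4 p16-positive libraries, of which 8 had their lowest CPM in p16-positive replicate 2. This count was likewise not tested against the number that separates by chance.

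The other named genes of negative value had varied roles. The desaturase Scd1 had a log2 fold change of -2.84, carried by 198 CPM in p16-negative replicate 1 where the other 7 libraries had 3.40 to 18.0 CPM. Asah1, the lysosomal acid ceramidase, had -1.70, the phosphodiesterase Gpcpd1 -2.09 and Egfl8 -1.70. The nonmuscle myosin heavy chain Myh9 was at 386, 114, 150.2 and 569.9 CPM against 123, 139.6, 185 and 138.6 CPM, so its ranges overlapped. Ctnnb1, beta-catenin, had -1.74, the proteasome assembly factor Psmg1 -1.97 and 1600014C10Rik -0.92. Psme2b, a near copy of the proteasome activator gene Psme2 with which it may share reads, had -1.79. None of these 9 genes passed the edgeR test (adjusted p = 0.671 to 0.760), and without p16-positive replicate 2 their values lay between -2.88 and -0.82. Gm12338, named from that second fit, had -1.34 and -2.48.

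No senescence gene passed the test. Of 17 tested genes of the senescence and p53 list 9 had positive values (median 0.18, and 0.03 without p16-positive replicate 2), and none had an unadjusted p under 0.05. Cdkn1a, the p53 target p21, was at 69.3, 379, 216 and 336 CPM in p16-negative and at 146, 211, 160.1 and 398 CPM in p16-positive libraries, with -0.23 (SE 0.45, edgeR adjusted p = 0.998). Bcl2l1, the survival factor Bcl-xL, had 0.33 and 0.03. Sesn1, a stress-induced p53 target, was at 9.90, 35.7, 30.0 and 27.4 CPM against 44.8, 47.7, 67.4 and 56.1 CPM, above in all 4 libraries, with 0.91 (SE 0.51, edgeR adjusted p = 0.998) and 0.94. In p16-negative replicate 1 Sesn1 lay under the floor of 3 UMIs, 29.7 CPM. Secreted senescence factors had 11 of 19 positive values with a median of 0.26, which was 0.41 without p16-positive replicate 2 and -0.32 without p16-positive replicate 4. Mmp9, a gelatinase, was at 0, 28.6, 0 and 14.9 CPM against 50.4, 47.7, 25.3 and 34.9 CPM, where p16-negative replicate 2 lay above p16-positive replicate 3, with log2 fold changes of 1.71 and 1.56. The membrane protease Mmp14 had -0.64.

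The ligand PD-L1, which holds back T cells through PD-1, is encoded by Cd274. It was at 29.7, 57.2, 60.1 and 152 CPM in p16-negative and at 67.2, 27.2, 92.7 and 296 CPM in p16-positive libraries, and replicate 2 was the lowest p16-positive value. Its log2 fold change was 0.55 (SE 0.61, edgeR adjusted p = 0.998), 0.87 (SE 0.52) without p16-positive replicate 2 and -0.41 without p16-positive replicate 4. Cmtm4, which with Cmtm6 protects PD-L1 from degradation, was at 0 in 3 p16-negative libraries and at 9.95 CPM in the fourth, against 16.8, 40.8, 8.42 and 15.3 CPM. Over 10 tested genes of PD-L1 and its turnover 6 were positive, with a median of 0.48 and of 0.22 without that library.

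Division genes were scarce. Mki67, a marker of cycling cells, had 10 UMIs over the 8 libraries and was not tested, and 4 of 24 mitosis genes were. Plk1, a mitotic kinase, was at 39.6, 35.7, 48.0 and 49.8 CPM in p16-negative and at 11.2, 30.6, 16.8 and 22.1 CPM in p16-positive libraries, without overlap. Its values in p16-positive replicates 1 and 3 lie under the floor of 3 UMIs there, 16.8 and 25.3 CPM. For Plk1 the log2 fold change was -1.15 (SE 0.53, edgeR adjusted p = 0.905), and -1.42 (SE 0.60) without p16-positive replicate 2. Birc5 and Ube2c, which act in chromosome segregation and in mitotic protein turnover, had -0.72 and -0.49, while Bub1b, a spindle checkpoint kinase and the fourth mitosis gene tested, had 0.20. The 14 tested DNA replication genes had 6 positive values and a median of -0.09.

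Other lists held genes with an unadjusted p under 0.05, mostly fewer without p16-positive replicate 2. Over all tested genes the shares at this p were 5.44% with and 1.68% without that library. Of 12 tested neutrophil genes 10 were positive (median 0.47, and 0.35 without that library), and 4 had an unadjusted p under 0.05 (1 without it). Among them Ltf, lactoferrin, which airway epithelium can also make, was at 2.49 to 79.2 CPM in p16-negative and at 16.8, 688, 16.8 and 34.9 CPM in p16-positive libraries, and Hdc, which makes histamine, at 12.4 to 178 CPM and at 308, 1127, 101 and 44.2 CPM. Their log2 fold changes of 3.39 and 2.44 became 0.34 and 0.99. Of 6 tested T and NK cell genes 5 were positive with a median of 0.69, and 6 with a median of 0.73 without p16-positive replicate 2. None passed the edgeR test, and 2 had an unadjusted p under 0.05 (1 without that library). Their share of UMIs was 0.033 to 0.056% in p16-negative and 0.058 to 0.116% in p16-positive libraries, without overlap. On this list, the granzyme gene Gzma had 5 and 42 UMIs. In the matrix list, 4 of 20 genes had an unadjusted p under 0.05 and none without that library, where the median went from 0.55 to 0.02. Its members Lama5, Mmp15 and Eln went from 2.70, 2.39 and 2.67 to 1.08, 0.75 and 1.51, and Tbx1, a developmental transcription factor of the retinoic acid list, from 3.78 to 1.89. The heat shock genes Hspb1 and Hsph1 went from 4.31 and 2.26 to 1.20 and 0.77.

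Most lists of core macrophage functions lay close to the median of all genes. Immediate early genes lay highest among them with a median of 0.34. Of these, 13 of 20 were positive and 3 had an unadjusted p under 0.05 (15 and 2 without p16-positive replicate 2), against 5.44% of all tested genes. The next medians were 0.20 for chemokines and cytokines, 0.17 for interferon response genes, 0.04 and -0.08 for presentation on MHC class I and II, -0.10 for the LPS receptor and NF-kB genes and 0.19 for oxidant defence. Without p16-positive replicate 2 these medians were 0.24, 0.14, 0.18, 0.19, 0.08, -0.03 and 0.09 in the same order. The cytosolic ribosome had 42 of 72 positive values with a median of 0.10 (0.06 without that library), oxidative phosphorylation 28 of 69 with -0.09 (-0.12), and glycolysis 5 of 10 with 0.02 (-0.07). Within them, Egr1 had 1.42 (0.76 without p16-positive replicate 2), Jund 0.34, the NF-kB inhibitor gene Nfkbib -1.18, the glutathione synthesis enzyme Gclc -1.47, Gpx4, which removes lipid peroxides, 0.85, B2m, the light chain of MHC class I, -0.87 and the lysosomal thioesterase Ppt1 -1.20. Rpl10 had 2.22 from 6 and 101 UMIs, and near copies of this gene could take part of its reads. None of these 8 genes passed the edgeR test (adjusted p = 0.738 to 0.998).

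Whether the p16 difference after LPS differed from that after PBS was tested as an interaction in the 16 libraries. The edgeR test called 0 of 6516 genes (0.0%, lowest adjusted p = 1.00), and 101 (1.55%) had an unadjusted p under 0.05, 5 of them on the 3 epithelial lists. DESeq2 called 0, with 41 at an unadjusted p under 0.05. In the PBS libraries, the corresponding log2 fold changes were 2.21 for Foxj1, 3.25 for Ccdc78, 3.51 for Krt8, 1.32 for Klf2 and -0.95 for Cd93, and 0.97 for Slc16a6. Those of Slc16a6 thus had opposite signs after LPS and PBS, with an interaction of -3.79 on the log2 scale (edgeR adjusted p = 1.00).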

How the data were processed

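The deposited table holds raw UMI counts of bulk MARS-seq (3′ RNA-seq) per gene, which the authors made with the UTAP pipeline on mm10 with RefSeq genes. For the aligner and counter, versions are not given in the sources used here. Beside the counts the authors deposited normalized values (signal: counts divided by DESeq2 size factors), log2 values (rlog) and log2 fold changes with p-values of their own comparisons, and none of these were used. No per-sample column was unassigned. Every gene in the table reached at least 6 UMIs in some library. Counts of the 8 LPS libraries were tested with edgeR 4.0.16 (quasi-likelihood F test, TMM factors, R 4.3.3) over the 5547 genes with at least 30 UMIs, with Benjamini-Hochberg adjustment at 0.05, on 4 libraries per fraction. A gene with few UMIs in 1 fraction can pass this filter only through the other, and its high ratio is then partly selected. The interaction was fitted on 16 libraries. DESeq2 1.42.0, limma 3.58.1, other filters and scalings, a replicate block and leaving out each library were alternatives. Fitting was tested on simulated data. Genes named were those of lowest p in each direction with a mean of at least 20 CPM, with all libraries (12) and without p16-positive replicate 2 (8), Cdkn2a, Cd274, Cdkn1a, Bcl2l1, Siglecf, Itgax, Ptprc and Mki67, and from each of 37 lists up to 3 members of lowest p and the most abundant. Members and lists were chosen with earlier results of these data known. Of 7946 symbols, 7919 matched RefSeq on GRCm38.p6. Intervals are exact (Clopper-Pearson, 95%), and they and the floor of 3 UMIs cover counting error only. Library totals are in the report.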

Additional observations from a re-analysis of the deposited data

Results flagged for a closer look

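Within a fraction, the library farthest from the others was singled out where its gap to the nearest, divided by the range of the 4 libraries, passed Dixon's critical value. Of 238 sets of 4 values, 47 did so. Chance flags about 1 in 20 groups of unselected values, a rate that does not hold here, since genes were chosen by their p in these libraries and 8 of the sets had 3 libraries at 0, which gives 1.00 by construction. The values below are that ratio.

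P16-positive replicate 2 was the high library in 23 of them, and p16-negative replicate 1 in 11. By share of UMIs these were the ciliated (0.914), secretory (0.960), general epithelial (0.940), alveolar type I (0.866) and interferon (0.858) lists. By CPM they were Foxj1 (0.887), Ccdc78 (0.906), Dnah6 (0.855), Smim22 (0.907), Gm1673 (0.898), 6820408C15Rik (0.850), Krt8 (0.947), St14 (0.874), Elf3 (0.941), Wfdc2 (0.956), Lypd2 (0.948), Gabrp (0.891), Bpifb1 (0.973), Scgb1a1 (0.948), Chil1 (0.966), Ltf (0.973), Mmp15 (0.854) and Hspb1 (0.953).

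P16-negative replicate 1 was high by the alveolar type II (0.888) and type I (0.831) lists and by Sftpc (0.886), Slc34a2 (0.939), Cxcl15 (0.933), Chil1 (0.946), Scd1 (0.943) and Ltf (0.939). It was the only p16-negative library with a UMI of Gabrp, Elf3 and Hspb1 (1.00 each).

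Of the other libraries, p16-negative replicate 2 was high by Hsph1 (0.950) and alone in having Armh1 and Gramd2 (1.00 each), replicate 3 was high by Car4 (0.966) and Ctsd (0.854), and replicate 4 was high by the lists for MHC class II (0.837) and for the LPS receptor and NF-kB (0.900) and alone in having Ttc21a, 6820408C15Rik and Cmtm4 (1.00 each). P16-positive replicate 3 was high by Gpcpd1 (0.846), and replicate 4 by the lists for MHC class I (0.837) and oxidant defence (0.906). No gene's p16 difference passed the test of a difference between LPS and PBS.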

How the results depend on the processing

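The LPS comparison called 0 genes with edgeR under every filter, scaling and spread estimate tried, with limma-voom and with all 16 libraries fitted together, and 2 with DESeq2. Leaving out 1 library gave 0 to 36 calls, with 36 only without p16-positive replicate 4, and 0 in the interaction without p16-positive replicate 2. The cause of these differences was not tested. Whether equal replicate numbers mark a shared source is not stated, and they were not treated as pairs because same-numbered deviations correlated above 0.1 in 3 of 4 pairs only (0.03, 0.16, 0.19 and 0.65). Such correlations cannot exclude pairing, and if it holds, the fit with the block is the one that takes it into account. Of the 8 libraries, 5 correlated best with their own number. With the replicate number as a block 36 genes were called, and 1 (Foxj1) when p16-positive replicate 2 was also left out. The block gave 1 interaction call (Palm). It turned Cdkn2a to 0.16 and Sftpc to 0.059, and without p16-positive replicate 2 it turned Cdkn2a to 1.53, Ptprc to -0.36 and Cdkn1a to 0.095. Limma-voom turned Cdkn2a to 0.56, Chil1 to 0.35 and Sftpc to 0.092 (0.23 with quality weights). Over the fits that leave out 1 library, log2 fold changes ran from -1.03 to 1.29 for Cdkn2a, -0.82 to 0.35 for Itgax, -0.11 to 0.65 for Ptprc, -0.41 to 1.07 for Cd274, -0.57 to 0.032 for Cdkn1a, -4.06 to 0.23 for Cxcl15, -3.14 to 2.21 for Chil1, -0.50 to 3.40 for Scgb1a1, -0.64 to 1.20 for Sftpc, -0.50 to 1.29 for Bub1b and -2.41 to 1.06 for Slc34a2. No other gene whose log2 fold change is given changed direction in these fits. Depth limits low genes, since the floor of 3 UMIs is 29.7 CPM in the shallowest library.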
